A study of Petunia x hybrida with 8 samples.

Results

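The subject is 1940 sites in the corolla chromatin of Petunia x hybrida at which anti-GFP ChIP recovered DNA strongly with the pODO1 construct while no peak was listed with the 35S construct. They were selected on values of the peak lists: a fold enrichment of at least 6 in the pODO1 list, a width under 500 bases, and no overlap of even 1 base with a 35S peak. They also had to lie on a scaffold that carries at least 1 gene ID of the RNA count table. Of 98009 pODO1 peaks 8820 reached 6-fold, 8696 of these were narrower than 500 bases, and 7064 of those lay on a gene-bearing scaffold. Of these 7064 strong narrow peaks 1940 lacked a 35S peak (27.5%, 95% Wilson interval 26.4 to 28.5) and 5124 overlapped one. Strength, width and overlap chose the sites, so these values are given as a description and not as a result. Another 283 sites met the limits on strength, width and overlap but lay on scaffolds without a gene ID.

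The ChIP data were 1 library with the pODO1 construct and 1 with the 35S construct, both from corolla, and the RNA data were 3 odo1i and 3 wild type corolla libraries. pODO1 is read here as the promoter of ODO1 itself, 35S as the strong promoter of a plant virus, wild type from the letters wt in the titles, and odo1i as plants with ODO1 silenced. The labels spell out none of these. They give no plant line, flower age, hour of harvest or number of plants, so it is not known whether a construct is represented by 1 plant or by pooled flowers. With 1 library per construct the peak lists have no replicate check, and no p-value is given for any difference between peaks.

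ODO1, short for ODORANT1, belongs to the R2R3-MYB family of plant transcription factors and acts in petunia petals. It is known for activating genes of the shikimate and phenylpropanoid routes, which supply the carbon for the benzenoid compounds of the floral scent. In ChIP, crosslinked chromatin fragments that carry the tagged protein are pulled down and sequenced, and a peak caller lists places where reads pile up above the local background. A construct under its own promoter is usually made in the cells and hours in which the gene is normally active, whereas the 35S promoter is active in most cells. The peak lists do not measure the amount of either protein.

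The number of reads behind each site could be recovered from the deposited values. MACS2 computes fold enrichment as the pileup of reads at the summit plus 1 over the local background plus 1, and it takes the p-value from a Poisson tail of the same pileup and background. For 100% of the peaks in both lists 1 whole number of reads satisfied the deposited fold enrichment and the deposited −log10 p together, within 0.001 on the −log10 p scale. Pileups and backgrounds below come from this step. The lowest background was 1.51 reads in the pODO1 list and 2.65 reads in the 35S list. At these lowest backgrounds a 6-fold peak therefore needed 15 reads with pODO1 and 21 reads with 35S, so an equal fold enrichment stood for fewer reads with pODO1.

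The 1940 sites were mostly low piles of reads. Their pileup at the summit ranged from 15 to 133 reads, with a median of 18 and quartiles of 16 and 21. At 747 of them (38.5%) it was only 15 or 16 reads, and at 1451 (74.8%) it was at most 20. At least 30 reads were found at 120 sites (6.19%). The strong narrow peaks that overlapped a 35S peak had a median of 20 reads with quartiles of 17 and 26, and 18.1% of them held at least 30 reads. Local backgrounds were low in both sets, with a median of 1.68 reads at the 1940 sites and 2.03 reads at the shared peaks. Fold enrichment ran from 6.001 to 11.2 with a median of 6.47 at the 1940 sites, against a median of 6.77 and a highest value of 23.97 at the shared peaks. The authors' −log10 q ran from 7.13 to 54.3 with a median of 9.02, against a median of 10.6 at the shared peaks.

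**Figure D1:**
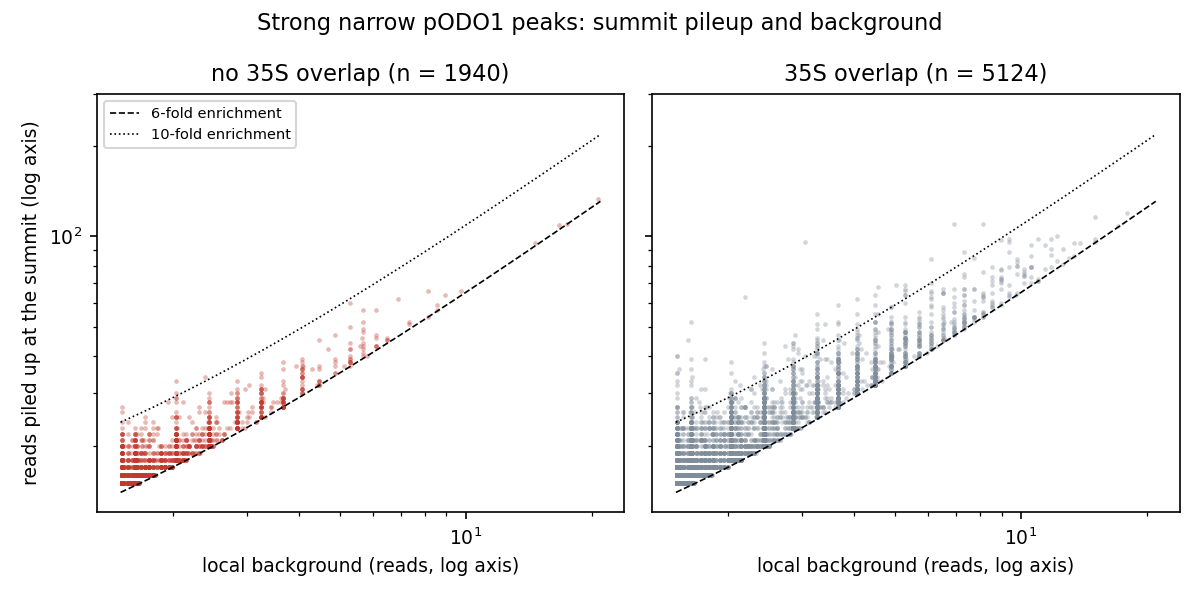
Reads piled up at the summit against the local background, both in reads on log axes, for the 1940 strong narrow pODO1 peaks with no 35S overlap (left) and the 5124 with one (right). Each point is a peak, the dashed line marks 6-fold and the dotted line 10-fold enrichment. The sites without 35S overlap crowd at 15 to 20 reads just above the 6-fold line, and few come near the 10-fold line.

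The local backgrounds of these sites took 3 kinds of value. At 370 sites (19.1%) it stood at the lowest value of the list, against 14.9% of the shared peaks. At 766 sites (39.5%) it was a whole multiple of 0.407 reads within 0.002, a step read here as the weight of a single control read. Of these 766 sites 285 held 4 steps, 159 held 5 and 124 held 6, and the highest held 51. The other 804 sites had a background that was neither the lowest value nor a whole multiple of the step.

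The threshold of 6-fold cut through a continuous range of values. The 3 sites of lowest fold enrichment all had 20 reads over a background of 2.50 and a fold enrichment of 6.001. They lay at positions 812615 to 812726 of Peaxi162Scf00117, 1575082 to 1575184 of Peaxi162Scf00189 and 176931 to 177038 of Peaxi162Scf01196. Just outside were 2 peaks of 15 reads over a background of 1.67, at 1150599 to 1150694 of Peaxi162Scf00176 and 1140521 to 1140653 of Peaxi162Scf00232, each of 5.998-fold. A further peak of 5.995-fold, with 16 reads over 1.84, lay at 2310775 to 2310928 of Peaxi162Scf00046.

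The strongest site was at positions 1728053 to 1728167 of Peaxi162Scf00042. It held 33 reads over a background of 2.03, an 11.2-fold enrichment with a −log10 q of 24.2, and the nearest 35S peak was 32860 bases away. The next, at 1257577 to 1257720 of Peaxi162Scf00050, held 27 reads over the lowest background (11.1-fold) and lay 2429 bases from a 35S peak. The third, at 1137894 to 1138021 of Peaxi162Scf00095, held 26 reads over the lowest background (10.8-fold) and lay 53917 bases from one. The sites on Peaxi162Scf00042 and Peaxi162Scf00095 thus lay far from any region listed with 35S, and that on Peaxi162Scf00050 much nearer.

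Below them came 661016 to 661125 of Peaxi162Scf00573, with 34 reads over 2.38 (10.3-fold), and 503558 to 503677 of Peaxi162Scf00425, with 30 reads over 2.03 (10.2-fold). The first lay 735 bases from a 35S peak of 4.10-fold, and the second 2984 bases from one of 3.71-fold. The remaining 5 of the strongest 10 held 24 to 29 reads and were 9.77-fold to 9.95-fold enriched. They lay at 516861 to 516974 of Peaxi162Scf00103, 2234209 to 2234326 of Peaxi162Scf00000, 1034362 to 1034483 of Peaxi162Scf00135, 357602 to 357775 of Peaxi162Scf00410 and 770570 to 770708 of Peaxi162Scf00527. The site on Peaxi162Scf00000 was the only one of the 10 whose nearest 35S peak, 531 bases away, was itself over 6-fold (6.86-fold). Only 5 of the 1940 sites reached 10-fold.

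A small set of sites combined many reads with a high background. The background was at least 5 reads at 48 sites (2.47%, against 5.84% of the shared peaks), where the pileup ran from 37 to 133 reads with a median of 45.5. The fullest site of all, at 496060 to 496204 of Peaxi162Scf00735, held 133 reads over a background of 20.7 and was 6.16-fold enriched with a −log10 q of 54.3. It was followed by 976342 to 976487 of Peaxi162Scf00099 (110 reads over 17.5), 763209 to 763340 of Peaxi162Scf00070 (109 over 16.7) and 447577 to 447700 of Peaxi162Scf00077 (95 over 14.6). These 4 sites were 6.002-fold to 6.22-fold enriched, near the threshold, although their q-values were the smallest of the 1940. Each lay between 775 and 1847 bases from a 35S peak. Whether such regions are repeated in the genome was not tested.

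The share of strong narrow peaks without a 35S partner fell with strength. It was 36.6% of 1338 peaks between 6-fold and 6.25-fold, 29.5% of 1602 between 6.5-fold and 7-fold, 21.5% of 1607 between 7-fold and 8-fold, and 12.6% of 800 between 8-fold and 10-fold. At 10-fold and above it was 3.94% (5 of 127 peaks, 95% Wilson interval 1.69 to 8.89). Narrow pODO1 peaks under 6-fold on gene-bearing scaffolds lacked a 35S peak in 59.4% (48445 of 81500). Among narrow pODO1 peaks on gene-bearing scaffolds, those under 6-fold were thus unmatched more often.

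The sites were narrower than the shared peaks in every class of fold enrichment. The 1940 sites had a median width of 127 bases (quartiles 111 and 159) and the shared peaks one of 161 bases (quartiles 127 and 243), while no peak of the list was narrower than 96 bases. In the 6 classes of fold enrichment the median width was 120 to 130 bases at the sites and 157 to 167 bases at the shared peaks. Among peaks under 120 bases 45.9% of 1638 had no 35S partner, against 7.55% of 781 peaks of 300 bases or more. At 6-fold to 6.5-fold the share without a partner was 44.3% below 150 bases and 23.3% from 150 bases up, and at 8-fold and above it was 19.6% and 5.02%. A narrow peak also offers fewer bases for an overlap.

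**Figure D2:**
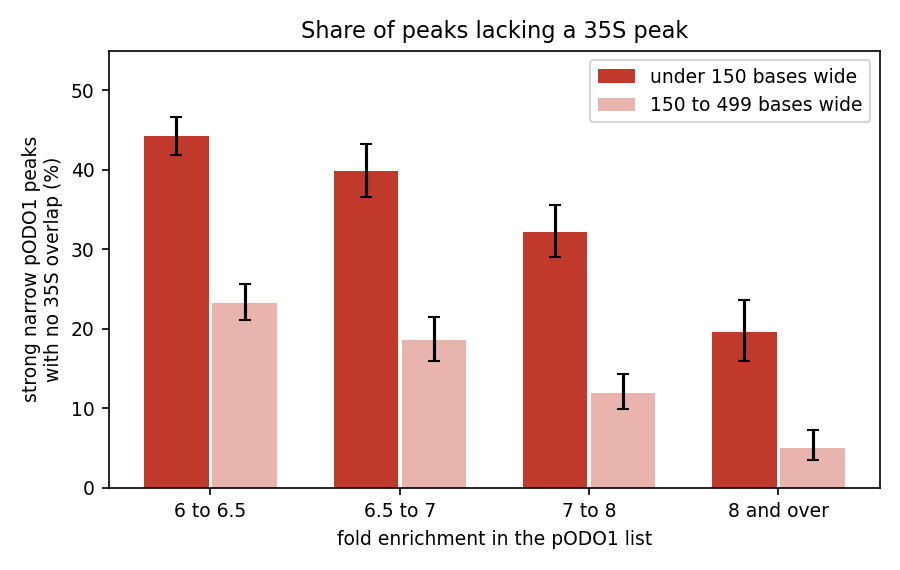
Percent of strong narrow pODO1 peaks with no 35S overlap, by fold enrichment in the pODO1 list and by width, with 95% Wilson intervals that cover counting error only. The share falls with fold enrichment in both width classes, and peaks under 150 bases (dark) stand above wider ones (light) in each class.

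**Figure D3:**
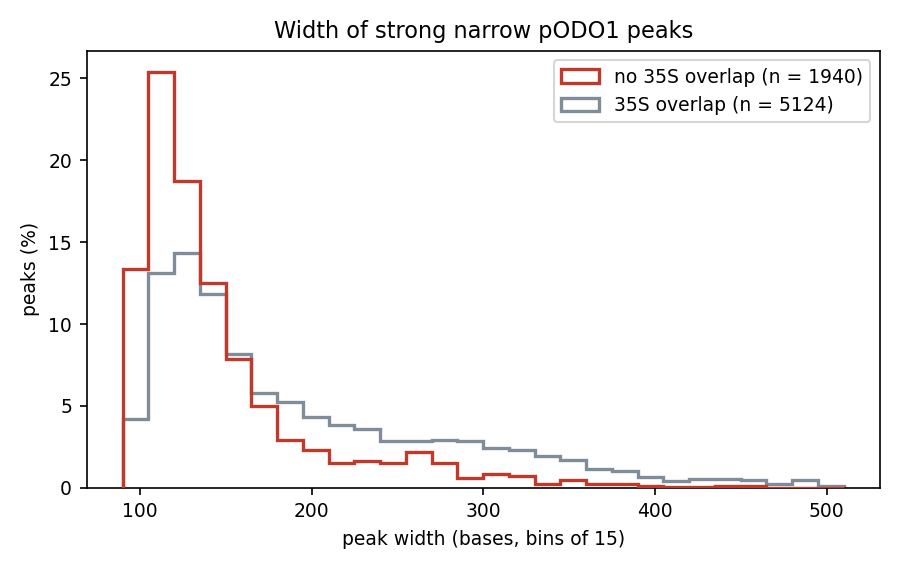
Widths of the 1940 strong narrow pODO1 peaks with no 35S overlap and of the 5124 with one, as percent of each set in bins of 15 bases. The sites without overlap gather near the shortest widths, with a median of 127 bases against 161 bases.

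A missing 35S peak is not a measured value of 0. The lists give no number for a place at which nothing was listed, so the enrichment with 35S at the 1940 sites is not known. At the lowest background of the 35S list the weakest listed peak held 9 reads and was 2.74-fold enriched, and 5% of all 35S peaks had a fold enrichment under 2.52. At the 5124 shared peaks the strongest overlapping 35S peak had a median of 4.70-fold (quartiles 3.96 and 5.73) and a median of 22.5 reads. It was under 3-fold at 259 of these peaks (5.05%) and at least 6-fold at 1016 (19.8%). The lowest backgrounds of the lists differ, so these fold enrichments were not compared between constructs.

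The sites were 27.5% of the strong narrow pODO1 peaks, against 26.7% (651 of 2435) in the opposite set of strong narrow 35S peaks with no pODO1 overlap on gene-bearing scaffolds. The pODO1 sites had a median width of 127 bases, a median fold enrichment of 6.47 and a median pileup of 18 reads, against 122 bases, 6.44 and 25 reads in this opposite set. Both sets were cut at the same fold enrichment and width, so the nearness of these medians is not read as a result. An equal fold enrichment stood for unequal read numbers in the lists, so the shares are not read as a result either.

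Most sites lay many peak widths from any 35S peak. The distance to the nearest 35S peak had a median of 3019 bases, with quartiles of 921 and 7970 and a lowest value of 7 bases. At 49 sites (2.53%) a 35S peak began or ended within 100 bases, at 297 (15.3%) within 500 and at 504 (26.0%) within 1000. Distances of over 10000 bases were found at 378 sites (19.5%). Weaker narrow pODO1 peaks without overlap had a median distance of 2570 bases, and 28.4% were within 1000 bases. For the 504 sites within 1000 bases the neighbouring 35S peak had a median of 3.71-fold, and at 18 of them it reached 6-fold.

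**Figure D4:**
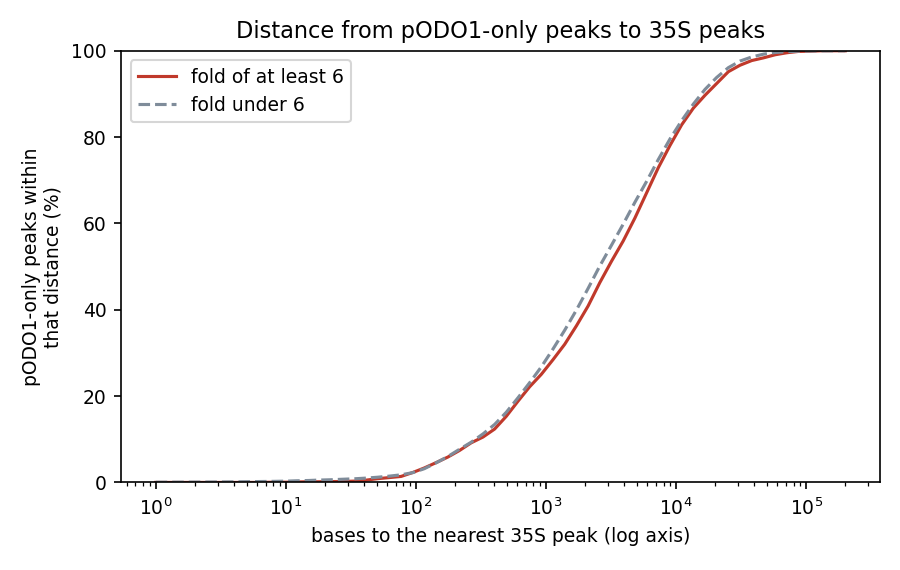
Cumulative percent of pODO1-only narrow peaks on gene-bearing scaffolds by the distance in bases to the nearest 35S peak (log axis), for the 1940 sites of at least 6-fold and the 48445 under 6-fold. The curves run close together, with medians of 3019 and 2570 bases.

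The site farthest from a 35S peak was at 42923 to 43105 of Peaxi162Scf00723, where 16 reads over 1.63 gave 6.47-fold and the next 35S peak was 123863 bases away. It was followed by 1575364 to 1575475 of Peaxi162Scf00172, with 15 reads, 6.09-fold and a distance of 118739 bases. The next were 124759 to 124920 of Peaxi162Scf00129 (18 reads, 7.30-fold, 87587 bases), 509762 to 509890 of Peaxi162Scf00192 (25 reads, 7.35-fold, 84762 bases) and 105935 to 106077 of Peaxi162Scf01363 (21 reads, 6.39-fold, 81150 bases). Of these 5 isolated sites 2 held only 15 or 16 reads, at the low end of the range. Those on Peaxi162Scf00172 and Peaxi162Scf01363 were the last listed peaks of their scaffolds, so their distance was measured only toward the scaffold start. The site on Peaxi162Scf00723 began at position 42923 with no 35S peak before it, so its distance was measured only toward the scaffold end.

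The sites also stood more alone among pODO1 peaks than the shared peaks did. So did narrow pODO1 peaks under 6-fold without 35S overlap, whose median distance to the next pODO1 peak was 2732 bases. At the 1940 sites the nearest other pODO1 peak was a median of 3537 bases away, against 1839 bases at the shared peaks. It was within 1000 bases at 456 sites (23.5%), against 36.6% of the shared peaks. At 221 of these 456 sites the neighbour overlapped a 35S peak, and at 235 it did not. At 7 of them the neighbour was itself one of the 1940 sites. The share of sites on scaffolds whose last peak ends at or past 100000 bases was 98.9%, against 98.7% of the shared peaks.

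Sites close to each other were few. Along the scaffolds 1102 pairs of neighbouring sites were separated by a median of 206044 bases, 63 pairs by at most 10000 and 4 by at most 1000. The closest pair lay on Peaxi162Scf00780, at 29121 to 29366 (8.36-fold, 20 reads) and 29878 to 30089 (7.17-fold), 511 bases apart. The next was on Peaxi162Scf00391, at 264538 to 264660 (6.79-fold) and 265366 to 265475 (6.85-fold), 705 bases apart and with the first 13446 bases from a 35S peak. The other pairs within 1000 bases were on Peaxi162Scf00221 (764 bases apart) and Peaxi162Scf00895 (903 bases apart).

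The 1940 sites were spread over 838 scaffolds, of which 358 carried 1 site, 208 carried 2 and 272 carried 3 or more. Peaxi162Scf00000 carried the most, 17 sites of 6.09-fold to 9.89-fold among its 59 strong narrow peaks (28.8%), along at least 8559951 bases. Peaxi162Scf00012 carried 15 of 37 (40.5%, up to 7.56-fold), Peaxi162Scf00005 carried 13 of 42 (31.0%, up to 7.96-fold) and Peaxi162Scf00010 carried 12 of 29 (41.4%, up to 8.23-fold). Peaxi162Scf00202 carried 10 of only 19 (52.6%, up to 7.95-fold). Among the 39 scaffolds with at least 20 strong narrow peaks the share without a 35S partner had a median of 23.8%. It ran from 8.33% on Peaxi162Scf00053 (2 of 24) to 47.6% on Peaxi162Scf00027 (10 of 21).

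On 79 scaffolds every strong narrow peak lacked a 35S partner, but 62 of these carried a single such peak. Those with 3 or more, named after their values were seen, were Peaxi162Scf00766 with 4 sites and Peaxi162Scf01501, Peaxi162Scf00475 and Peaxi162Scf00722 with 3 each. Their sites were 6.10-fold to 7.57-fold enriched. Peaxi162Scf00470, named in the same way, carried 8 sites among 12 strong narrow peaks along 719966 bases with 6 gene IDs.

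The RNA libraries compare transcripts of odo1i with wild type corolla. A gene can be tied to a site only through the scaffold that carries both, since the gene IDs come without positions or names. The libraries held 18612881 to 20591367 counts. Genes were called changed at an adjusted p under 0.05 in the edgeR quasi-likelihood test with Benjamini-Hochberg adjustment over 17667 tested genes. On the scaffolds that carry a site 93 of 13290 tested genes were called (0.700%), against 0.628% of all tested genes. Of these 93 genes 53 rose in odo1i (0.399%, against 0.374% of all) and 40 fell (0.301%, against 0.255% of all). The shares over all genes include these scaffolds, which hold most tested genes, so their nearness is not read as a result about the sites. The tested genes on these scaffolds had a median log2 fold change of -0.03, as did all tested genes. The number of calls on these scaffolds changed with single libraries: 4 were made without odo1i replicate 1, 0 without odo1i replicate 2 (1258 genes at an unadjusted p under 0.05), 8 without odo1i replicate 4, while leaving out wild type replicate 1 gave 3, replicate 2 gave 20 and replicate 4 gave 342. Over all tested genes these fits, in the same order, called 4, 0, 10, 3, 21 and 435. With all libraries DESeq2 called 825 genes on scaffolds with a site and 1093 in all.

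The share of called genes was compared by the number of sites on a scaffold, with no test of a trend. It was 0.714% of 4625 tested genes on scaffolds with 1 site, 0.728% of 6597 on those with 2 to 4 and 0.580% of 2068 on those with 5 or more. It was 0.411% of 4377 genes on scaffolds with no site, where 13 genes rose (0.297%) and 5 fell (0.114%). Among these, scaffolds with a shared strong narrow peak had 16 of 3482 genes called (0.460%). An unadjusted edgeR p under 0.05 was found for 15.4% of tested genes on scaffolds with a site and 14.9% on those with no site. The differences from scaffolds with a site were not tested. Of the 1940 sites 209 (10.8%) lay on a scaffold with a called gene, against 545 of the 5124 shared peaks (10.6%). In bulk petal tissue fewer cells of a type and less RNA per cell cannot be told apart.

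The called genes of largest change on these scaffolds were named by rule, and 6 of the 8 fell in odo1i. The scaffold of Peaxi162Scf01226g00004 is short, with a last peak ending at position 58097, 5 gene IDs and no shared strong narrow peak. Its only site, at 24202 to 24309, held 28 reads over 3.25 (6.82-fold), 6461 bases from a 35S peak. The gene had 0, 0 and 0.244 CPM in odo1i replicates 1, 2 and 4, against 45.6, 31.4 and 33.4 CPM in wild type, with a log2 fold change of -8.67 ± 0.75 (SE, edgeR adjusted p = 0.0124). The ratio of wild type to odo1i was 439.9, with an exact counting interval of 188.2 to 1356. All of its 5 counts in odo1i came from replicate 4, without which the gene was at least 477-fold lower in odo1i, with the remaining odo1i libraries set to a floor of 3 counts in sum.

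Peaxi162Scf00968g00018 shares its scaffold, with 12 gene IDs, with 1 site at 234465 to 234579 (28 reads over 2.66, 7.93-fold) and 1 shared strong narrow peak. It had 0 counts in every odo1i library, against 3.70, 12.4 and 11.0 CPM in wild type. With the odo1i group set to a floor of 3 counts in sum (0.0505 CPM) the level was at least 179-fold lower than in wild type (edgeR adjusted p = 0.0456). Leaving out odo1i replicate 4 gave the lowest bound (117-fold), odo1i replicate 2 gave 119-fold, and wild type replicate 1 gave the highest (232-fold).

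Peaxi162Scf00100g01521 lies on a scaffold with 4 sites of 6.11-fold to 6.92-fold, of which that at 514196 to 514334 was 45 bases from a 35S peak. This scaffold also holds 49 gene IDs and 6 shared strong narrow peaks. The gene had 0.425, 0.300 and 0.0975 CPM in odo1i, against 44.7, 83.8 and 42.7 CPM in wild type. The groups were far apart, with a log2 fold change of -7.68 ± 0.52 (SE, edgeR adjusted p = 0.00747). Peaxi162Scf00132g00239, on a scaffold with 2 sites of 6.06-fold and 6.42-fold, had 1 count in odo1i, in replicate 4, and 267 counts in wild type (4.64 ± 0.50 CPM, SD, n = 3). The ratio of wild type to odo1i was 274, with an exact counting interval of 48.7 to 10850 (edgeR adjusted p = 0.0209). Without odo1i replicate 4, which held that count, the level in odo1i was at least 60.05-fold lower against a floor of 3 counts in sum. The scaffold of this gene holds 81 gene IDs and 7 shared strong narrow peaks.

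Peaxi162Scf00467g00913 lies on a scaffold with 13 gene IDs, 4 sites and 4 shared strong narrow peaks. The strongest of the sites, at 543204 to 543371, held 20 reads over the lowest background (8.36-fold). The gene had 0.904, 1.25 and 1.07 CPM in odo1i, against 16.1, 20.5 and 29.4 CPM in wild type, a log2 fold change of -4.35 ± 0.32 (SE, edgeR adjusted p = 0.00747). Peaxi162Scf00007g02541, on a long scaffold with 7 sites of 6.08-fold to 7.57-fold, had 1.65, 1.20 and 1.999 CPM in odo1i, against 49.1, 46.3 and 15.4 CPM in wild type. Its log2 fold change was -4.51 ± 0.50 (SE, edgeR adjusted p = 0.0258). The scaffold of this gene holds 149 gene IDs and 15 shared strong narrow peaks.

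The 2 genes that rose were Peaxi162Scf00408g00225, with 1 site on its scaffold (162740 to 162948, 33 reads over 4.48, 6.21-fold), and Peaxi162Scf00049g02410, with 4 sites of 6.09-fold to 6.92-fold. The first had 14.2, 20.98 and 20.6 CPM in odo1i, against 0.340, 1.86 and 0.686 CPM in wild type (log2 fold change 4.28 ± 0.60 SE, edgeR adjusted p = 0.0456). Without wild type replicate 2, the highest of its group, the log2 fold change was 5.18. Peaxi162Scf00049g02410 had 195.1, 355.4 and 394.2 CPM in odo1i, against 15.8, 14.9 and 20.3 CPM in wild type (log2 fold change 4.21 ± 0.31 SE, edgeR adjusted p = 0.00747). The scaffold of Peaxi162Scf00408g00225 holds 53 gene IDs and 1 shared strong narrow peak, and that of Peaxi162Scf00049g02410 holds 47 and 10. At none of the 8 genes did the groups overlap, which the rule required.

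All 8 genes kept their direction in each fit without 1 library. All 8 lost their call without odo1i replicate 2, where the edgeR adjusted p lay between 0.0715 and 0.240. Without odo1i replicate 1 it was lost by 7 genes (adjusted p over the 8 genes from 0.0153 to 0.0924), without odo1i replicate 4 by 5 (0.0315 to 0.184), without wild type replicate 1 by 6 (0.0354 to 0.0936) and without wild type replicate 2 by 3 (0.0447 to 0.0932). Without wild type replicate 4 all 8 were called (0.00306 to 0.0317).

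**Figure D5:**
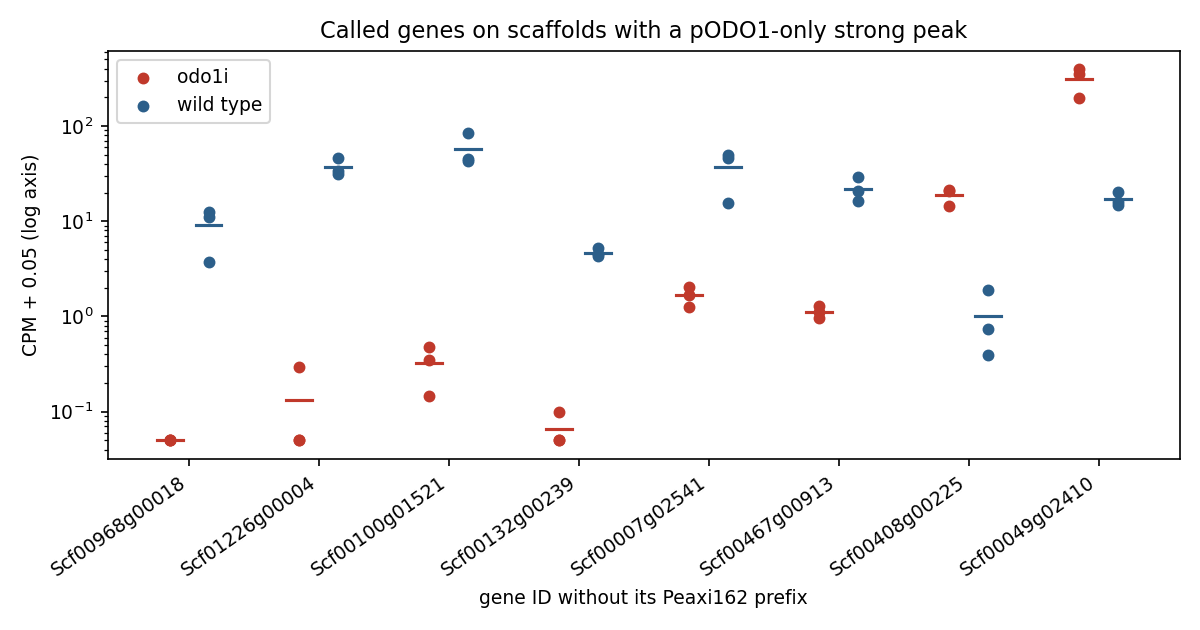
CPM plus 0.05 on a log axis for the 8 called genes of largest change on scaffolds with a pODO1-only strong site, in odo1i (left of each pair) and wild type (right). Points are the 3 libraries of a group and lines are their means, and points at 0.05 are libraries with 0 counts.

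On scaffolds with at most 10 gene IDs, a limit set after the data were seen, 5 called genes shared a scaffold with a site. The tested genes on such scaffolds were not counted. The 5 are therefore not compared with the 0.628% called among all tested genes and are not read as a result about the sites. One is Peaxi162Scf01226g00004. Peaxi162Scf03779g00019 is 1 of 4 IDs of its scaffold, whose site at 4273 to 4543 held 16 reads over 1.80 (6.08-fold). It had 37.3, 46.7 and 45.3 CPM in odo1i, against 8.75, 7.10 and 6.97 CPM in wild type (log2 fold change 2.50 ± 0.18 SE, edgeR adjusted p = 0.00747). Its call was lost without odo1i replicate 2 (0.0715) and without wild type replicate 1 (0.0506). Peaxi162Scf00250g00029, Peaxi162Scf00396g00134 and Peaxi162Scf00533g00059 fell with log2 fold changes of -1.80, -2.45 and -1.36 and edgeR adjusted p of 0.0473, 0.0491 and 0.0343. Each lost its call without any 1 of the libraries other than wild type replicate 4 (adjusted p from 0.0571 to 0.268). Peaxi162Scf00250g00029 also lost its call under the replicate block (edgeR adjusted p = 0.0518).

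Where a scaffold holds a single gene ID, the site can be set beside 1 gene only. Such scaffolds numbered 28 and carried 41 sites. Of their 28 IDs 9 had 0 counts in every library, and several of these 9 have a t in place of the g after the scaffold name. Sites on scaffolds whose IDs are all of that kind numbered 10. What such IDs stand for was not determined here. Of the 28 IDs 16 were tested, of which edgeR and DESeq2 called 0. The lowest edgeR adjusted p was 0.417. None (0) had an unadjusted p under 0.05, against 15.3% of all tested genes, while 3 had one without wild type replicate 4. With 0.628% of all genes called, 16 genes are too few to read a count of 0 as low. The strongest of these sites, the 9.83-fold one on Peaxi162Scf00410, shares a scaffold of 5 sites with Peaxi162Scf00410g00019, which had 2, 11 and 1 counts in odo1i, against 4, 2 and 0 counts in wild type. Next was 30542 to 30663 of Peaxi162Scf01410, with 28 reads over 2.03 (9.56-fold). Its gene Peaxi162Scf01410g00004 averaged 19.96 ± 0.72 CPM in odo1i and 18.0 ± 2.54 CPM in wild type (SD, n = 3 each).

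The site at 11154 to 11276 of Peaxi162Scf00887 held 30 reads over 2.85 (8.06-fold), and Peaxi162Scf00887g00014 averaged 20.6 ± 2.06 CPM in odo1i and 20.5 ± 0.50 CPM in wild type (SD, n = 3 each). The site at 94031 to 94149 of Peaxi162Scf01344 held 18 reads over the lowest background (7.57-fold), and Peaxi162Scf01344g00018 averaged 26.9 ± 2.03 CPM in odo1i and 32.6 ± 2.51 CPM in wild type (SD, n = 3 each). The site at 36836 to 36947 of Peaxi162Scf00644 held 22 reads over 2.03 (7.58-fold), and Peaxi162Scf00644g00042 averaged 13.7 ± 1.04 CPM in odo1i and 12.3 ± 4.94 CPM in wild type (SD, n = 3 each). None of these genes passed the edgeR test, with adjusted p from 0.417 to 0.991 for these 4.

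The other sites named on such scaffolds were 131658 to 131773 of Peaxi162Scf01609 (7.96-fold), 100777 to 100896 of Peaxi162Scf01431 (7.72-fold) and 254180 to 254297 of Peaxi162Scf00846 (7.54-fold), each with an ID at 0 counts in every library. On Peaxi162Scf01431 and Peaxi162Scf00846 that ID is of the kind with a t. At 456763 to 456933 Peaxi162Scf00410 held a second strong site, with 50 reads over 5.29 (8.11-fold), 658 bases from a 35S peak of 1.91-fold. The site at 106030 to 106141 of Peaxi162Scf01001 held 36 reads over 4.07 (7.30-fold), 250 bases from a 35S peak, and Peaxi162Scf01001g00001 averaged 4.09 ± 3.46 CPM in odo1i and 4.62 ± 3.92 CPM in wild type (SD, n = 3 each).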

How the data were processed

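Per the submitters' processing notes, MACS2 and Bowtie2 were used along with TopHat2, HTSeq, cutadapt and DESeq2. Their settings, the ChIP control, the genome build and strand use were not given in the sources used here, so reads of overlapping or near-identical genes cannot be told apart. The authors deposited whole-number counts per gene ID, without normalization. The deposited peak lists give, per peak, a fold enrichment (a ratio), a −log10 p and a −log10 q, and a summit offset that was read as the deposited score in bases. Each list carries the name of its construct. Scaffolds are named as in the files and positions are counted from 1.

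Members, lists and tests were chosen with earlier results of these data known. Pileup and background were solved from fold enrichment and −log10 p with a pseudocount of 1, and the step was tested on simulated data. "Within" distances count the bases between peak edges. Named sites were the 10 strongest, the 5 farthest from a 35S peak, the 3 on each side of the threshold, those on the 5 scaffolds with most sites (given by count and range) and the 10 strongest on scaffolds with 1 gene ID. The 4 sites of highest pileup, the closest pairs and scaffolds so marked were chosen after their values were seen. Named genes were the 8 called genes of largest log2 fold change with at least 1 CPM in a group and groups that do not overlap.

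The main test of genes passing filterByExpr was the two-sided quasi-likelihood test of edgeR 4.0.16 with TMM factors, and DESeq2 1.42.0 served as an alternative (R 4.3.3). CPM are counts scaled by the TMM-adjusted library total. The SE of a log2 fold change is not given by edgeR and was derived as its absolute value over the square root of the F statistic. The labels do not say whether replicates come from different plants, and p-values then cover only the spread among these libraries, which may be technical. Wild type replicate 4 had a median Spearman correlation across genes of 0.900 with the other libraries, where the others had 0.949 to 0.962. Intervals and floors cover counting error only. Peak tables were handled in pandas 2.3.3 and SciPy 1.17.1 under Python 3.11.15. Sequences and genome annotation were not used here.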

Additional observations from a re-analysis of the deposited data

How the results depend on the processing

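Of the 12 alternatives to the rule, 4 moved the number of sites past 1.5 times. It was 8736 at a minimum of 5-fold and 452 at 7-fold, 3318 when only 35S peaks of at least 4-fold counted and 3279 when only 35S peaks of a −log10 q of at least 5 counted. The share without a 35S partner was then 40.8%, 17.8%, 47.0% and 46.4%. It was 29.9% at a width under 300 bases, 23.3% when a 35S peak within 500 bases counted as a partner, and 25.6% on all scaffolds. The other 5 alternatives kept both values. Among these, a minimum −log10 q of 5 for pODO1 peaks could not change them. The lowest −log10 q was 7.13 at the sites and 7.15 at the shared peaks. The median distance to a 35S peak moved to 4197 bases where one within 500 bases counted as a partner, and to 8581 and 10040 bases with the limits on 35S peaks, which leave fewer of them by construction.

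Called genes, in all and on scaffolds with a site, were 179 and 144 without a filter, 1093 and 825 with DESeq2, and 194 and 153 under a replicate block by number. Leaving out 1 library gave 0 to 435 in all and 0 to 342 on these scaffolds. The edgeR count was 0 without odo1i replicate 2, where 1673 genes in all had an unadjusted p under 0.05, and 435 without wild type replicate 4. The cause was not tested. The labels do not say that equal numbers pair libraries, so the main test did not treat them as paired. The deviations of same-numbered libraries correlated at 0.175, 0.0931 and 0.111, which does not settle whether they are paired. On scaffolds with a site whose last peak ends before 200000 bases 2 of 108 tested genes were called (1.85%), and 35 of 6389 on those with a site of at least 7-fold (0.548%), against 0.628% of all genes. The 8 named genes kept their call with RLE size factors, without a filter, with DESeq2 and with the block. Peaxi162Scf00250g00029, which is not one of these 8, lost its call under the block.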
